A study of Homo sapiens with 33 samples.

Results

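The nuclear encoded subunits of the mitochondrial respiratory chain were followed in 3 head and neck squamous cell carcinoma (HNSCC) cell lines under cetuximab. The members were taken from the gene count table by symbol: every NDUFA, NDUFB, NDUFC, NDUFS and NDUFV gene with a number, SDHA to SDHD, 7 subunits of complex III and 10 subunits of complex IV. This rule found 58 of 56470 gene symbols, with 37 in complex I, 4 in complex II, 7 in complex III and 10 in complex IV. NDUFA4 is counted with complex I by its name, although it is now placed in complex IV, and the 2 arms of complex I hold the other 16 and 20. It used names alone and no measured value. All 58 were present in the table and all 58 passed the filter on low counts in every fit, with between 287 and 20217 reads per member and library.

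The respiratory chain sits in the inner membrane of the mitochondrion. Complex I takes electrons from NADH through a peripheral arm that reaches into the matrix and pumps protons through a membrane arm. Complex II, which is also the succinate dehydrogenase of the TCA cycle, takes electrons from succinate. Complex III passes electrons from quinol to cytochrome c, and complex IV, cytochrome c oxidase, passes them to oxygen. Complexes I, III and IV also hold subunits encoded in mitochondrial DNA, whereas complex II is wholly nuclear encoded. Epidermal growth factor receptor (EGFR) signalling drives growth of many HNSCC, and cetuximab is an antibody that blocks this receptor.

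The lines SCC1, SCC6 and SCC25 (UM-SCC-1 and UM-SCC-6 in the culture protocol) received PBS or 100 nM cetuximab in medium that was renewed daily. Bulk poly(A) RNA was sequenced from PBS cultures on days 0 to 5 and from cetuximab cultures on days 1 to 5, giving 33 libraries, 1 per line, treatment and day. In SCC6 the labels give day 2 for 2 cetuximab libraries, called 2a and 2b here, and day 1 for none. Nothing in the labels says that libraries of a group came from separate experiments, so days 1 to 5 stand in for replicates and p-values measure the spread over days. The labels give DMEM with hydrocortisone, at unequal doses, for SCC1 and SCC25 and high glucose DMEM with non-essential amino acids for SCC6, whereas the study's methods give 1 medium with Ham's F12 for all lines. By the labels, SCC6 and its medium cannot be told apart. No genetic change or other agent was labelled.

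Total counts per library ran from 28508758 to 80727478, and the highest, on cetuximab days 4 and 5 of SCC6, came from a flow cell that held no PBS library. Flow cells were shared between treatments only by PBS day 5 and the cetuximab libraries of SCC1, by PBS days 2 to 5 and cetuximab days 2a, 2b and 3 of SCC6, and by the PBS libraries and cetuximab days 1 and 2 of SCC25. All 9 squamous epithelial markers examined reached 1 CPM (read counts scaled to library size, here with the trimmed mean of M-values, TMM) in each group. Their summed level was 1941 to 2988 CPM with PBS and 5719 to 7884 CPM with cetuximab in SCC1, 1544 to 2972 and 1231 to 1788 CPM in SCC6, and 13026 to 18429 and 14769 to 17200 CPM in SCC25. In SCC1, KRT5 stood at 285 to 1045 CPM with PBS and 2882 to 3712 CPM with cetuximab. In SCC6 with PBS, KRT5 stood at 1.78 to 3.24, KRT14 at 1.87 to 6.61 and DSG3 at 1.51 to 4.46 CPM. With cetuximab these 3 stood at 10.5 to 14.6, 3.94 to 6.40 and 1.01 to 1.66 CPM in SCC6. CDH1, at 561 to 907 CPM, and ITGA6, at 476 to 797 CPM, gave much of the SCC6 sum with PBS. PTPRC and CD3E, which define leukocytes, stayed at or below 0.302 CPM, with CD3E at 0 in all SCC25 libraries of days 1 to 5. The summed level of 5 fibroblast markers was higher under cetuximab in each line, from 20.8 to 32.7 CPM with PBS against 49.1 to 145 CPM in SCC1, from 2.79 to 5.02 against 8.79 to 97.2 CPM in SCC6 and from 113 to 137 against 147 to 231 CPM in SCC25. COL1A1 and COL1A2 made up most of this sum in SCC1 and SCC25, and COL1A1 did in SCC6. The summed level of 4 leukocyte markers was 18.6 to 53.5 CPM with PBS and 8.36 to 16.7 CPM with cetuximab in SCC1, 16.6 to 19.0 and 3.96 to 7.22 CPM in SCC6, and 166 to 233 and 146 to 175 CPM in SCC25. CD68, which is not limited to leukocytes, gave most of it, and CD14 the rest in SCC1. The part of these marker levels in the results was not tested.

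To see how subunit transcripts responded to cetuximab, days 1 to 5 were compared with PBS days 1 to 5 within each line. Subunit transcripts fell most widely in SCC6, where 19 of 58 members were lower and 0 were higher, against 14.5% and 15.5% of all genes called lower and higher. In SCC1, 11 members were lower and 4 higher, against backgrounds of 22% and 22.5%. In SCC25, 6 were lower and 0 higher, against 9.47% and 8.72%. The median log2 fold change of the members was −0.24 in SCC6, −0.05 in SCC1 and −0.07 in SCC25, while the median over all genes tested was 0.00, 0.02 and 0.01. Calls were made at an adjusted p under 0.05 (edgeR quasi-likelihood test, Benjamini-Hochberg over all genes), and 30.1%, 44.5% and 18.2% of all genes were called in SCC6, SCC1 and SCC25. At an unadjusted p under 0.05, 0 members were higher in SCC6 and 2 in SCC25, both by edgeR and by DESeq2. Called in either direction were 32.8% of members in SCC6, close to the background, 25.9% in SCC1 and 10.3% in SCC25, both below it. The excess over all genes in SCC6 was thus in the lower direction.

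**Figure D1:**
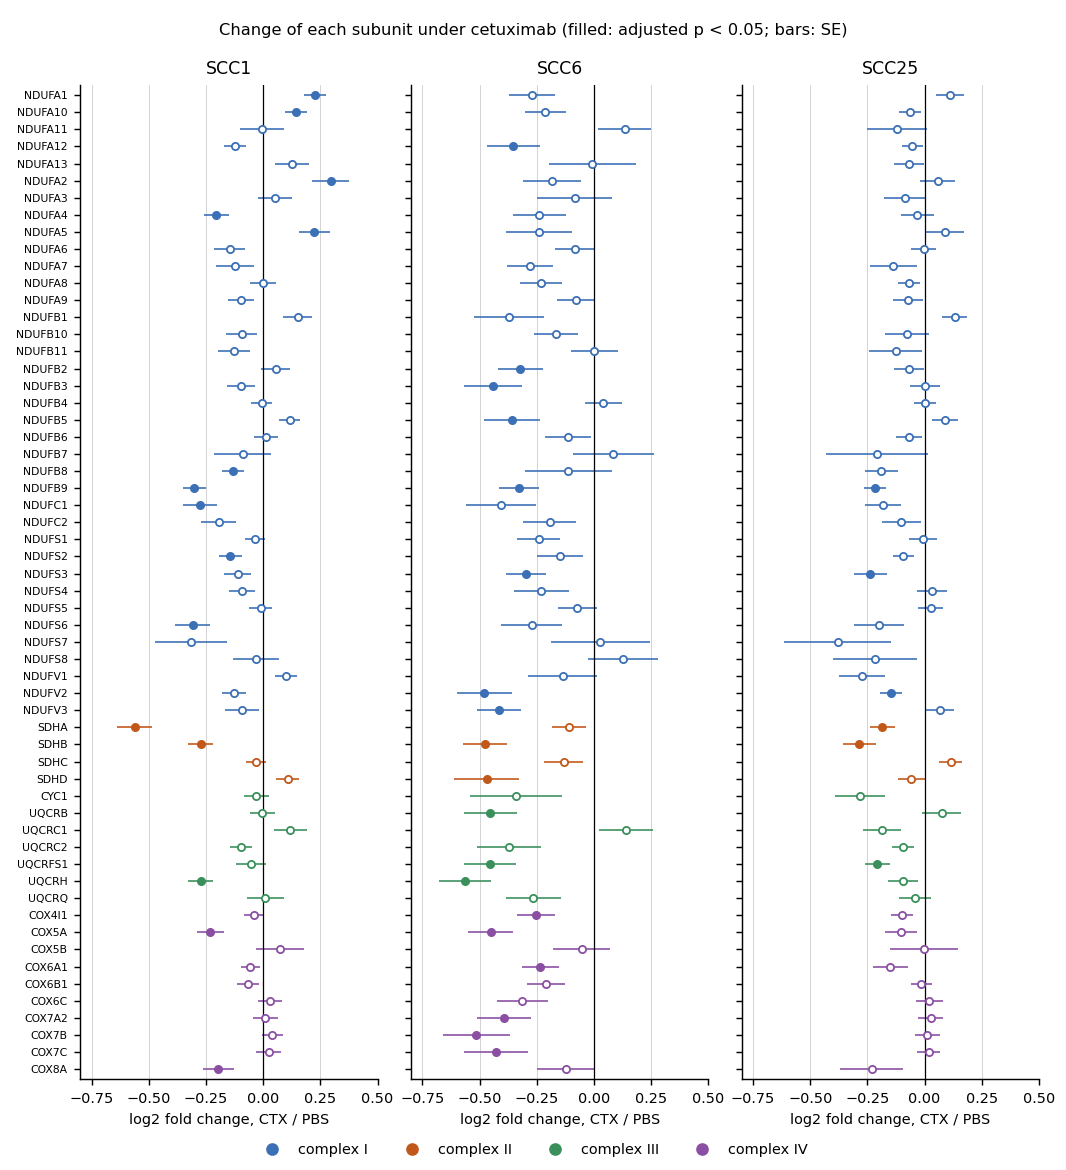
Log2 fold change of each of the 58 subunits under cetuximab (x axis) in SCC1, SCC6 and SCC25, with bars for the standard error and filled points for an adjusted p under 0.05. SCC6 has 19 filled points, all left of 0; SCC1 has 11 left and 4 right of 0, and SCC25 has 6, all left.

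These counts moved with the flow cell in 2 of the lines. Comparing within flow cells, 23 members were lower and 0 higher in SCC6, 17 of them among the 19. In SCC25, 0 members were called within flow cells (6 at an unadjusted p under 0.05, by edgeR). In SCC1, 2 were lower, SDHA and UQCRH, and 4 higher, NDUFA2, NDUFA11, NDUFB7 and UQCRC1, and the median of the members turned from −0.05 to 0.04. The within-cell fit of SCC1 rests on 1 PBS library, and that of SCC6 takes nothing from cetuximab days 4 and 5. That of SCC25 takes nothing from cetuximab days 3 to 5, so flow cell and day cannot be told apart in its lost calls. With the day as a block, so that libraries of the same day were paired and PBS day 1 of SCC6 was dropped, 32 members were lower and 2 higher in SCC6, NDUFS8 and UQCRC1. Without PBS day 1 and with no block, 29 were lower in SCC6. Without cetuximab days 4 and 5, 5 were lower, COX5A, NDUFV3, SDHB, UQCRFS1 and UQCRH, with a median of −0.22 over the 58 members. Leaving out other single libraries gave 8 in SCC6 without PBS day 4 or cetuximab day 5, 10 without PBS day 3 and 12 without cetuximab day 4. In SCC25, 2 were left without PBS day 2, cetuximab day 4 or cetuximab day 5, and 3 without any other PBS day. All genes called in SCC6 moved too, from 5226 to 4108, 3764, 3922 and 4021 in these fits, in that order. Without PBS day 1 of SCC6 they numbered 6602. In SCC25 they went from 3474 to 2220, 2196 and 2219, and to between 2272 and 3364 without another PBS day. Shares of all genes are not given for the other fits of this paragraph, those within flow cells included. Counts from these fits therefore cannot be assigned to the members.

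The lists of called members overlapped in part. NDUFB9, an accessory subunit of the membrane arm of complex I, and SDHB, the iron-sulphur subunit of complex II, were called lower in all 3 lines. Between SCC6 and SCC25, 5 members were called lower in both, which is 26.3% of the SCC6 list and 83.3% of the SCC25 list, against 33.1% and 46.8% for all genes tested in the 3 lines. Between SCC1 and SCC6, 4 were, 36.4% of the SCC1 list and 21.1% of the SCC6 list, against 34.5% and 55.2%. Between SCC1 and SCC25, 3 were, 27.3% of the SCC1 list and 50% of the SCC25 list, against 32.2% and 72.7%. Called lower in all 3 lines were 3.45% of members and 3.91% of all genes, so this count was near the background. A further 28 members (48.3%, against 39.3% of all genes) were called in none, and 27 (46.6%, against 25.2%) had a log2 fold change below 0 in all 3. No member was called in opposite directions in different lines (3.19% of all genes were), but other fits gave such calls. With the day as a block, NDUFA1, NDUFA5 and NDUFA10 were higher in SCC1 and lower in SCC6, and UQCRC1 was higher in SCC6 and lower in SCC25. By DESeq2, NDUFA1 was higher in SCC1 and lower in SCC6.

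**Figure D2:**
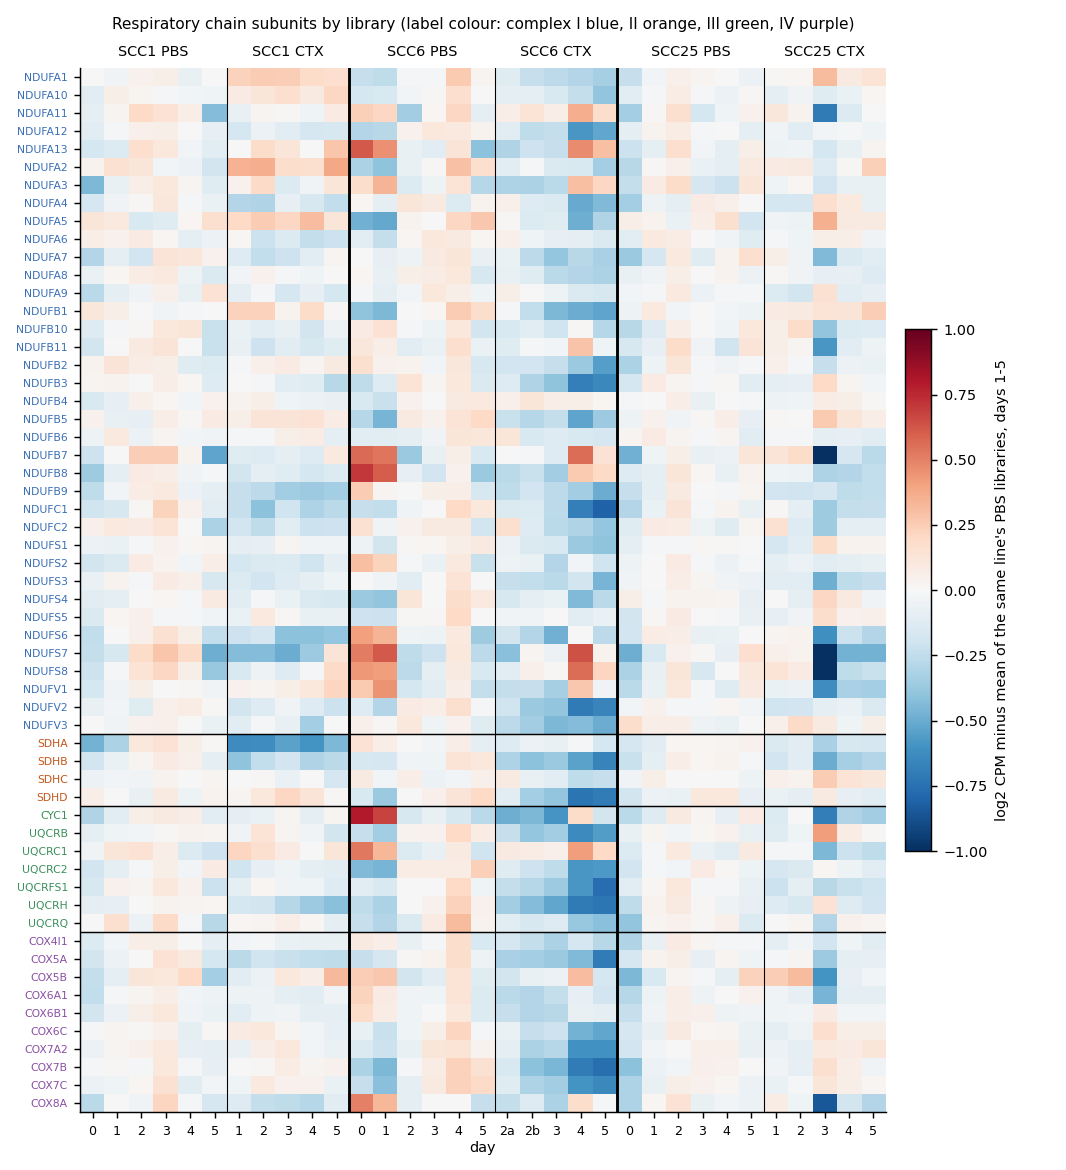
Log2 CPM of each subunit (rows, grouped by complex) in each of the 33 libraries (columns, by line, treatment and day), relative to the mean of the same line's PBS libraries of days 1 to 5. Blue cells mark lower levels, which fill most of the SCC6 cetuximab columns, and the columns of SCC25 cetuximab day 3 and SCC6 PBS days 0 and 1 stand apart for part of the rows.

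In complex II, 2 of 4 members were called lower in each line, SDHA and SDHB in SCC1 and SCC25, and SDHB and SDHD in SCC6. SDHA (GRCh37 chr5:218418-257197, plus strand) encodes the flavoprotein that oxidises succinate. In SCC1 it stood at 123, 165, 169, 159 and 155 CPM on PBS days 1 to 5 and at 99.2, 99.7, 106, 101 and 112 CPM on cetuximab days 1 to 5. The groups of days 1 to 5 did not overlap, with PBS day 1 the lowest of these controls. On PBS day 0, which was not part of the comparison, SDHA stood at 110 CPM, inside the cetuximab range. The log2 fold change was −0.56 ± 0.08 (SE, edgeR adjusted p = 5.66e-05), the largest fall of any member in SCC1, and it was −0.56 within flow cells (adjusted p = 0.00835).

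In SCC25, SDHA fell by 0.19 on the log2 scale (SE 0.05, edgeR adjusted p = 0.0339), from 133 ± 5.59 to 117 ± 6.56 CPM (SD, n = 5 each). This call was lost within flow cells (edgeR adjusted p = 0.281), with no filter on low counts (0.0727), with day 0 added (0.0940) and with 7 of 10 single libraries left out. In SCC6, SDHA stood at 172 ± 8.08 CPM with PBS and 162 ± 7.08 CPM with cetuximab (SD, n = 5 each), and its interval of ± 2 SE ran from −0.26 to 0.04 on the log2 scale. Reads of SDHA may be shared with its pseudogene copies, whose rows held 8.04% to 23.9% of the SDHA count. Summed with these copies, the SCC1 groups of days 1 to 5 still did not overlap, at 144 to 186 CPM with PBS and 121 to 133 CPM with cetuximab.

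SDHB (GRCh37 chr1:17345159-17380527, minus strand) carries the iron-sulphur clusters of complex II. In SCC6 it stood at 64.9, 71.4, 71.1, 80.4 and 78.5 CPM on PBS days 1 to 5, and at 59.0, 55.0, 56.6, 50.3 and 45.9 CPM in the cetuximab libraries 2a, 2b, 3, 4 and 5. Every cetuximab library lay below every PBS library of days 1 to 5, as in SCC1 and SCC25. PBS day 0 of SCC25, at 91.7 CPM, lay among the cetuximab libraries of that line. The log2 fold change was −0.48 ± 0.10 in SCC6, −0.27 ± 0.05 in SCC1 and −0.28 ± 0.07 in SCC25 (SE), with edgeR adjusted p of 0.00355, 0.00103 and 0.0162. Within flow cells it stayed called in SCC6 (−0.42) but not in SCC1 (−0.17, adjusted p = 0.162) or SCC25 (−0.15, adjusted p = 0.231).

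SDHC and SDHD anchor complex II in the membrane. SDHD fell by 0.47 on the log2 scale in SCC6 (SE 0.14, edgeR adjusted p = 0.026), from 64.4 ± 9.18 to 47.1 ± 8.48 CPM (SD, n = 5 each). The groups overlapped, with PBS day 1 at 49.3 CPM and cetuximab library 2a at 58.9 CPM. The call was lost with 5 of 10 single libraries left out (up to 0.0650), and without cetuximab days 4 and 5 the log2 fold change was −0.30 (0.146). In SCC1 and SCC25 its log2 fold changes were 0.11 and −0.06 and were not called, although that of SCC1 was called with the trend on GC content and length removed (0.14, edgeR adjusted p = 0.0175). SDHC was called in no line, with log2 fold changes of −0.03, −0.13 and 0.11 in SCC1, SCC6 and SCC25. Over days 1 to 5, the summed level of the 4 subunits was lower under cetuximab without overlap in SCC1 (471 to 540 CPM against 435 to 459), SCC6 (409 to 444 against 337 to 399) and SCC25 (521 to 553 against 507 to 519). On PBS day 0 the sum was 453 CPM in SCC1, inside its cetuximab range, and 487 CPM in SCC25, below its cetuximab range. In SCC6 it was 437 CPM, inside the PBS range.

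**Figure D3:**
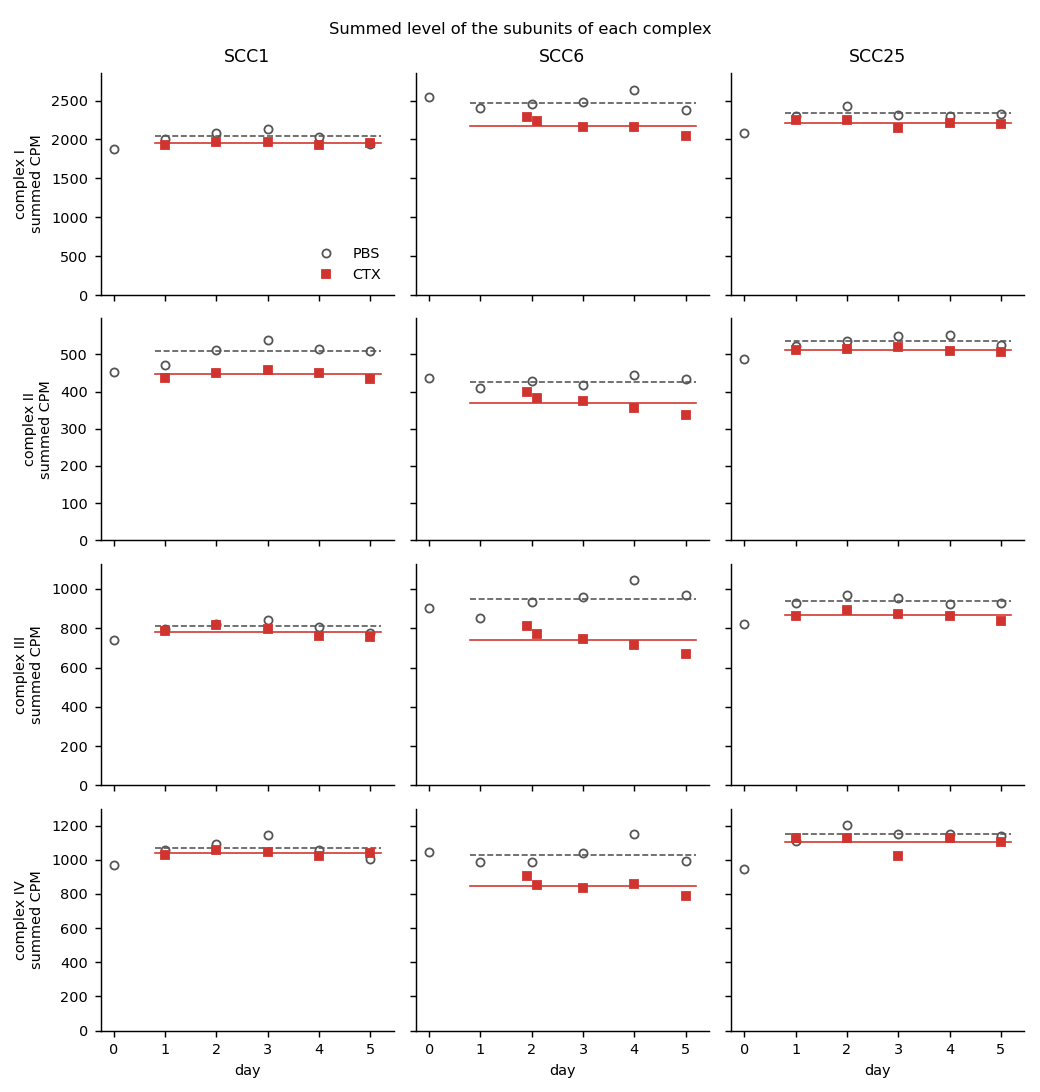
Summed CPM of the subunits of each complex (rows) by day in each line (columns), with open circles for PBS, filled squares for cetuximab and lines for the mean over days 1 to 5. In SCC6 every cetuximab point lies below every PBS point of days 1 to 5 in all 4 complexes. Over days 1 to 5, complexes I, III and IV overlap in SCC1, and complex IV alone overlaps in SCC25.

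In complex I, 8 of 37 members were called lower in SCC6, 6 lower and 4 higher in SCC1 and 3 lower in SCC25. In SCC6, 4 of 16 were called in the peripheral arm and 4 of 20 in the membrane arm. NDUFB9 stood at 352, 345, 360, 360 and 308 CPM on PBS days 1 to 5 of SCC6 and at 289, 301, 287, 270 and 245 CPM in cetuximab libraries 2a to 5. The groups of days 1 to 5 were apart in all 3 lines, although in SCC6 the gap between PBS day 5 and cetuximab library 2b was small. PBS day 0 of NDUFB9 lay inside the cetuximab range in SCC1 (113 CPM) and SCC25 (167 CPM), but not in SCC6 (411 CPM). Its log2 fold change was −0.30 ± 0.05 in SCC1, −0.33 ± 0.09 in SCC6 and −0.22 ± 0.05 in SCC25 (SE, edgeR adjusted p of 0.000351, 0.0136 and 0.00766). Within flow cells the values were −0.21 in SCC1 and −0.19 in SCC25, no longer called (edgeR adjusted p of 0.0867 and 0.0712). The SCC25 call was also lost with day 0 added to PBS (edgeR adjusted p = 0.0585).

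NDUFV2, a core subunit with an iron-sulphur cluster, fell in SCC6 from 82.3 ± 9.29 to 59.7 ± 8.83 CPM (SD, n = 5 each; log2 fold change −0.48 ± 0.12 SE, edgeR adjusted p = 0.011). Its SCC6 groups overlapped, with PBS day 1 at 67.0 CPM and cetuximab library 2a at 71.5 CPM. Its call there was lost without cetuximab days 4 and 5 (edgeR adjusted p = 0.0597). In SCC25 NDUFV2 fell by 0.15 on the log2 scale (edgeR adjusted p = 0.0474). Its pseudogene NDUFV2P1 held up to 10.1% of its count, nearly none of it in SCC6. NDUFS3, a core subunit of the quinone module, fell by 0.30 in SCC6 and by 0.24 in SCC25 on the log2 scale, without overlap of the groups (edgeR adjusted p of 0.0223 and 0.0428). In SCC25 its call was lost within flow cells (−0.11, adjusted p = 0.456), with no filter on low counts (0.0561) and with 7 of 10 single libraries left out.

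The 4 members that rose in SCC1 were all accessory subunits of complex I. NDUFA1 stood at 36.9, 39.0, 39.4, 35.9 and 37.7 CPM on PBS days 1 to 5 and at 44.2, 45.0, 44.8, 42.9 and 42.4 CPM with cetuximab. These groups did not overlap (log2 fold change 0.23 ± 0.05 SE, edgeR adjusted p = 0.00176; 0.0589 within flow cells). NDUFA2 rose by 0.29 ± 0.08 (SE), from 21.9 ± 2.09 to 26.7 ± 1.97 CPM (SD, n = 5 each, edgeR adjusted p = 0.00915), and by 0.49 within flow cells (adjusted p = 0.017). NDUFA5 rose by 0.22 and NDUFA10 by 0.14 on the log2 scale (edgeR adjusted p of 0.0159 and 0.0265), and neither was called within flow cells (0.650 and 0.113) or with PBS day 3 left out (0.0546 and 0.0775). The call of NDUFA10 was lost with 6 of 10 single libraries left out.

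Among the subunits of complex I that fell in SCC1, NDUFS6 changed by −0.31 ± 0.08 and NDUFC1 by −0.28 ± 0.08 (SE, edgeR adjusted p of 0.00499 and 0.00938). Within flow cells these were −0.05 and −0.15 and were not called. NDUFS6 on PBS day 5, the PBS library that shared a flow cell with the cetuximab libraries, was 53.0 CPM, inside the cetuximab range of 47.3 to 56.2 CPM. The share of mitochondrially encoded mRNA in the libraries of SCC1 was 3.88% to 4.30% with PBS and 4.39% to 4.89% with cetuximab, and its part in these results was not tested.

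In complex III, 3 of 7 members were called lower in SCC6, UQCRH, UQCRFS1 and UQCRB, against 1 in SCC1 and 1 in SCC25. UQCRH, the hinge protein, had the largest fall of any member in SCC6. It stood at 208, 258, 266, 304 and 267 CPM on PBS days 1 to 5 and at 203, 192, 181, 159 and 157 CPM in cetuximab libraries 2a to 5. PBS day 1 came close to cetuximab library 2a, and the other PBS libraries were well above all cetuximab libraries. The log2 fold change was −0.57 ± 0.11 in SCC6 and −0.27 ± 0.05 in SCC1 (SE, edgeR adjusted p of 0.00337 and 0.001), and both held within flow cells (−0.53 and −0.29). In SCC25 its interval of ± 2 SE ran from −0.22 to 0.04 on the log2 scale.

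UQCRFS1, the Rieske iron-sulphur protein, fell by 0.45 ± 0.11 in SCC6 and by 0.21 ± 0.05 in SCC25 on the log2 scale (SE, edgeR adjusted p of 0.0107 and 0.0193). The groups of days 1 to 5 did not overlap in either line. PBS day 0 of SCC25, at 79.7 CPM, lay below cetuximab day 2, at 80.6 CPM. In SCC25 UQCRFS1 was not called within flow cells (edgeR adjusted p = 0.188) or with 4 of 10 single libraries left out (up to 0.0582). The row of its pseudogene held up to 10.7% of its count. Summed with that copy, SCC6 remained apart at 92.5 to 109 CPM with PBS and 56.5 to 80.6 CPM with cetuximab, whereas the SCC25 groups overlapped, at 83.3 to 93.4 and 71.0 to 87.8 CPM.

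In complex IV, 6 of 10 members were called lower in SCC6, 2 in SCC1 and 0 in SCC25, and all 10 had a log2 fold change below 0 in SCC6. COX7B, an accessory subunit around the mitochondrially encoded core, stood at 57.1, 77.6, 82.1, 91.7 and 86.9 CPM on PBS days 1 to 5 of SCC6 and at 70.3, 58.8, 56.7, 48.1 and 46.2 CPM in cetuximab libraries 2a to 5. The groups overlapped, because PBS day 1 lay among the cetuximab libraries. Its log2 fold change was −0.51 ± 0.15 (SE, edgeR adjusted p = 0.0203). The call was lost without PBS day 4 (edgeR adjusted p = 0.0552), without cetuximab day 5 (0.0508) and without cetuximab days 4 and 5 (0.122), and it held within flow cells (0.00266).

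The next question was whether these changes differed between lines, tested as an interaction of line and treatment. The change under cetuximab differed for 18 of 58 members (31.0%), against 26% of all genes (edgeR, adjusted p under 0.05). Between SCC1 and SCC6, 16 members changed more in the upward direction in SCC1 and 1 in SCC6 (19.2% of all genes differed). Between SCC25 and SCC6, 15 did so in SCC25 and 0 in SCC6 (17.5% of all genes), with 1 in that direction at an unadjusted p under 0.05 by edgeR. SCC1 and SCC25 differed for SDHA alone (8.5% of all genes). These contrasts share libraries and are not independent. The count of 18 became 12 within flow cells, 7 without cetuximab days 4 and 5 of SCC6, and 29 with the day as a block. Shares of all genes called in these fits are not given, so the moves cannot be assigned to the members.

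The 5 members with the smallest adjusted p were SDHA (0.000548), NDUFA1 (0.00149), NDUFV3 (0.00216), COX7B (0.00446) and NDUFB5 (0.00568), all by edgeR. The change of SDHA in SCC1 differed from that in SCC6 by −0.48 and from that in SCC25 by −0.39 on the log2 scale (edgeR adjusted p of 0.000403 and 0.00642), the fall being larger in SCC1. All 5 were still called within flow cells and without cetuximab days 4 and 5 of SCC6. NDUFA1 (GRCh37 chrX:119005795-119010625) rose in SCC1, and in SCC6 it stood at 38.0 ± 4.83 CPM with PBS and 31.9 ± 1.76 CPM with cetuximab (SD, n = 5 each), not called (−0.27, edgeR adjusted p = 0.0653). It was called lower in SCC6 with the day as a block (−0.34, 0.0158), within flow cells (0.0310), by DESeq2 (0.0267) and without PBS day 1 (0.0154). The difference between the changes of these lines was 0.47 ± 0.10 on the log2 scale (SE, edgeR adjusted p = 0.000981).

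NDUFV3 (GRCh37 chr21:44299754-44333414), an accessory subunit of the peripheral arm, stood in SCC6 at 21.4, 22.9, 20.5, 21.9 and 19.5 CPM on PBS days 1 to 5 and at 17.7, 16.6, 15.5, 15.7 and 15.1 CPM in cetuximab libraries 2a to 5, with no overlap. It fell by 0.42 ± 0.10 on the log2 scale there (SE, edgeR adjusted p = 0.0072), and in SCC25 the interval of ± 2 SE ran from −0.06 to 0.19. COX7B (GRCh37 chrX:77154937-77162873) had log2 fold changes of 0.04 in SCC1 and 0.01 in SCC25, neither called. NDUFB5 (GRCh37 chr3:179322478-179345435) had −0.36 in SCC6 and 0.12 in SCC1. Its call in SCC6 (edgeR adjusted p = 0.044) was lost with 8 of 10 single libraries left out and after removal of the trend with GC content and length (−0.09, adjusted p = 0.286).

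Promoters are shown for the member first in alphabetical order from each complex among these 5, to set promoter letters beside the members that differed between lines. None of the 5 belongs to complex III. Each window runs from 250 bases before to 50 bases after the RefSeq start, on the plus strand of GRCh38.p14, for NDUFA1 chrX:119871582-119871881, for SDHA chr5:218070-218369 and for COX7B chrX:77899218-77899517. Capitals mark matches, on either strand, to GCATGCGC (core of the NRF1 site), TGCGCA (its half-site), CCGGAAG (ETS factors), AAGATGGC (YY1) and GGGCGG (Sp1). The half-site was added after the SDHA window had been read, and none of these overlapped in the windows shown.
NDUFA1: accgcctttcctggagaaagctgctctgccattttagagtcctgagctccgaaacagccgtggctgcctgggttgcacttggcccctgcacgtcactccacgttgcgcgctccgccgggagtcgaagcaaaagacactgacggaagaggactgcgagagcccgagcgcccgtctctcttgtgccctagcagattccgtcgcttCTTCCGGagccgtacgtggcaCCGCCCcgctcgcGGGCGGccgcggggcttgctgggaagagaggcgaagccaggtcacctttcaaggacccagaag
SDHA: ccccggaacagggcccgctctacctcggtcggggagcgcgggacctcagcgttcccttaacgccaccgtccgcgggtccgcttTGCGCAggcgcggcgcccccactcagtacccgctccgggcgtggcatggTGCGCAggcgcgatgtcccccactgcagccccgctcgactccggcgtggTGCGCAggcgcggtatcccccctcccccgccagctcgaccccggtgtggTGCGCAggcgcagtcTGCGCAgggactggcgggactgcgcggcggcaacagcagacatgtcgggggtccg
COX7B: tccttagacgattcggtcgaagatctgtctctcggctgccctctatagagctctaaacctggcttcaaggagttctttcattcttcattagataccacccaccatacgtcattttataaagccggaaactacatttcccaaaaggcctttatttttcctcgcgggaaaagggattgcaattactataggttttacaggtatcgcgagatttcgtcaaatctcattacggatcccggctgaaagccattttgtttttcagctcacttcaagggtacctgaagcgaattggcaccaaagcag
NDUFA1 held an ETS match 47 bases before its start and Sp1 matches 26 and 13 bases before it. SDHA held 5 half-sites, which began 167, 118, 69, 20 and 5 bases before its start, and COX7B held no match. Of the 58 members, 48 had an entry in the promoter table. The NRF1 core was in 9 (18.8%), against 3.05% of all 35116 promoters in the table, non-coding genes included. The ETS letters were in 14 (29.2% against 10.3%), the YY1 letters in 8 (16.7% against 2.89%), the Sp1 letters in 29 (60.4% against 45.0%) and the half-site in 17 (35.4% against 8.24%). A match is a description of the letters and not evidence of binding.

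Next, each cetuximab library was set against the PBS library of its day. In SCC6 the median log2 ratio of the 58 members was −0.11 in library 2a, −0.18 in 2b, −0.24 on day 3, −0.39 on day 4 and −0.31 on day 5. Members below 0 numbered 47, 48, 51, 45 and 43, while 52.7% to 54.0% of all genes lay below 0. In SCC1 the medians lay between −0.12 and −0.01, and in SCC25 between −0.11 and −0.02. In SCC6, 34 members lay below 0 in all 5 libraries and 3 above, in SCC1 19 and 6, and in SCC25 14 and 0. As shares these were 58.6% and 5.17% in SCC6, against 32.6% and 26.3% of all genes above a mean log2 CPM of 3. In SCC1 they were 32.8% and 10.3% against 35.1% and 25.4%, and in SCC25 24.1% and 0% against 27.2% and 18.0%. In SCC6 the libraries 2a and 2b share the PBS library of day 2.

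**Figure D4:**
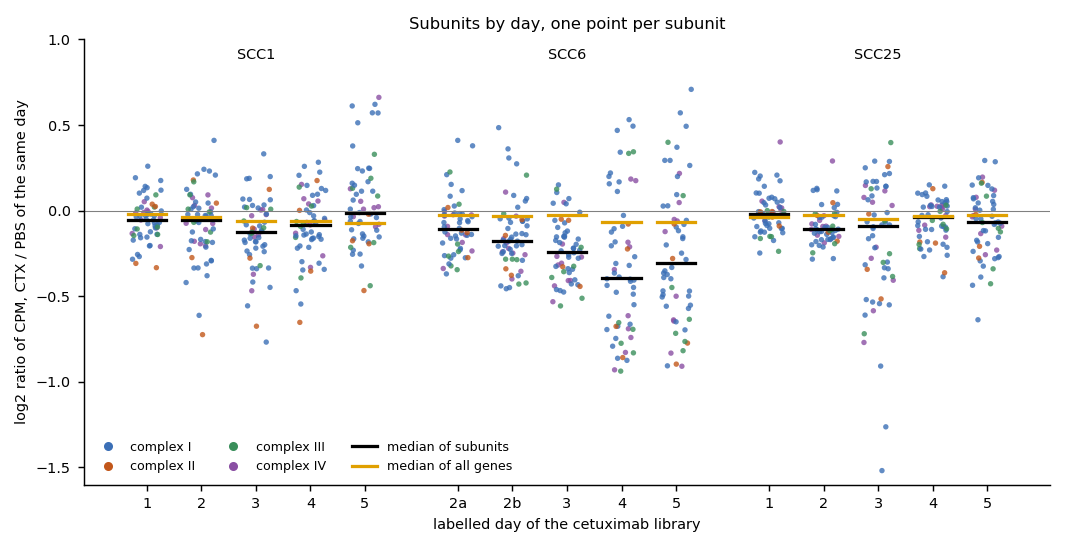
Log2 ratio of CPM of each of the 58 subunits in each cetuximab library against the PBS library of the same labelled day (points, coloured by complex), with black bars for the median of the subunits and yellow bars for the median of all genes. The black bar lies below the yellow bar in every SCC6 library and is lowest on day 4, at −0.39.

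The lowest single ratio was that of NDUFS7 on SCC25 day 3, −1.52. On most days the ratios went with the GC content of the transcripts, in either direction, and this content ranged from 34.9% to 66.9% among members. Across the 58 members, which share library and depth, Pearson's r between ratio and GC content was 0.81 and 0.77 on SCC6 days 4 and 5 and −0.80 on SCC25 day 3. It was −0.68 on SCC25 day 5, 0.61 in SCC6 library 2b, 0.60 on SCC1 day 5 and 0.55 on SCC25 day 1. Values near 0 were −0.11 on SCC1 day 1 and 0.04 on SCC25 day 2. For the log2 fold changes over all days, r was 0.60 in SCC6, −0.62 in SCC25 and −0.15 in SCC1. The part of GC content in the results was not tested beyond the next value. With a trend on GC content and length removed, 26 members were lower and 1 higher in SCC6, 17 of them among the 19, and 10 lower and 2 higher in SCC25. In SCC1 12 were then lower and 9 higher, with NDUFA13, NDUFB1, NDUFB5, NDUFV1 and SDHD added to the 4 that rose. NDUFV1 and SDHD were then called higher in SCC1 and lower in SCC6, and NDUFV1 also lower in SCC25. Shares of all genes called in this fit are not given, so the larger counts cannot be assigned to the members.

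Untreated lines were compared over PBS days 1 to 5. Of 58 members, 38 differed between SCC1 and SCC25 (68.3% of all genes did), 42 between SCC6 and SCC25 (72%) and 42 between SCC1 and SCC6 (68.9%), by edgeR at an adjusted p under 0.05. The members were thus called about as often as all genes. Directions were mixed, with 12 higher and 26 lower in SCC1 than in SCC25, 20 and 22 in SCC6 against SCC25, and 17 and 25 in SCC1 against SCC6. PBS libraries of SCC25 were all on a flow cell with no other line, and SCC1 and SCC6 shared 1 flow cell by 1 library each, so line and flow cell cannot be told apart here.

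**Figure D5:**
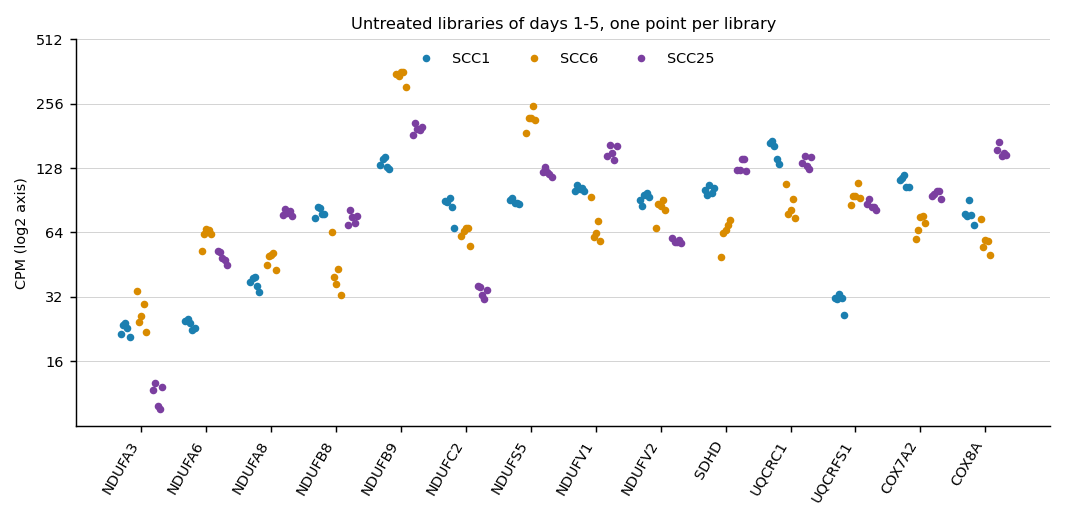
CPM (log2 axis) of the 14 subunits named for a difference between untreated lines, with 1 point per PBS library of days 1 to 5 and colours for SCC1, SCC6 and SCC25. The 3 lines are apart for NDUFB9, highest in SCC6, while UQCRFS1 is low in SCC1 alone.

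UQCRFS1 gave the largest differences. It stood at 31.7, 31.2, 32.9, 31.7 and 26.4 CPM on PBS days 1 to 5 of SCC1, at 85.6, 95.1, 94.7, 109 and 92.3 CPM in SCC6 and at 87.0, 92.2, 84.5, 84.5 and 81.3 CPM in SCC25. SCC1 thus lay far below both other lines, which overlapped. The log2 difference was −1.64 ± 0.08 against SCC6 and −1.49 ± 0.08 against SCC25 (SE, edgeR adjusted p of 2.18e-12 and 7.94e-12).

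NDUFA6, an accessory subunit of the peripheral arm, was also lowest in SCC1, at 23.9 ± 1.16 CPM against 62.0 ± 5.58 CPM in SCC6 and 49.1 ± 2.98 CPM in SCC25 (SD, n = 5 each). NDUFB9 was highest in SCC6, at 345 ± 21.5 CPM against 135 ± 7.76 CPM in SCC1 and 195 ± 8.64 CPM in SCC25, with no overlap between lines. Its log2 difference between SCC1 and SCC6 was −1.36 ± 0.06 (SE, edgeR adjusted p = 1.72e-12). NDUFA8 was 0.467 times as high in SCC1 as in SCC25 (edgeR adjusted p = 1.31e-10), and NDUFS5 was 1.79 times as high in SCC6 as in SCC25 (edgeR adjusted p = 3.16e-09).

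SCC25 was lowest for NDUFC2 and NDUFA3, accessory subunits of the membrane arm. NDUFC2 stood at 34.0 ± 2.04 CPM in SCC25, 84.7 ± 10.1 CPM in SCC1 and 63.1 ± 4.91 CPM in SCC6 (SD, n = 5 each), and NDUFA3 at 11.2 ± 1.36, 22.5 ± 1.48 and 27.2 ± 4.70 CPM. NDUFA3 was 2.01 times as high in SCC1 and 2.44 times as high in SCC6 as in SCC25 (edgeR adjusted p of 3.94e-07 and 1.56e-08). NDUFV2 was 1.58 times as high in SCC1 as in SCC25 (edgeR adjusted p = 3.25e-07).

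SCC25 was highest for COX8A, a subunit of complex IV, at 155, 169, 146, 150 and 147 CPM on PBS days 1 to 5, against 50.01 to 73.9 CPM in SCC6 and 69.5 to 90.4 CPM in SCC1. The levels of SCC25 did not meet those of either line. Its log2 difference between SCC6 and SCC25 was −1.37 ± 0.09 (SE, edgeR adjusted p = 3.86e-10). NDUFV1, the NADH-oxidising core subunit of complex I, was 0.458 times and SDHD 0.491 times as high in SCC6 as in SCC25 (edgeR adjusted p of 2.06e-08 and 9.1e-09). NDUFB8 was 1.83 times, UQCRC1 1.77 times and COX7A2 1.58 times as high in SCC1 as in SCC6 (edgeR adjusted p of 1.22e-05, 5.98e-07 and 1.73e-07).

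Changes with time in PBS were tested as a trend over days 0 to 5. In SCC1, 0 members had a trend (3.95% of all genes did), with 6 at an unadjusted p under 0.05 by edgeR and 5 by DESeq2. In SCC6, 10 members rose and 8 fell (38.3% of all genes changed), and in SCC25, 2 rose (13.7% of all genes). Among the SCC6 members that rose, COX7B, COX7C, NDUFB5, SDHD and UQCRH were also called lower there under cetuximab. NDUFA2, NDUFA5, NDUFB1, NDUFS4 and UQCRC2 rose too and were not called under cetuximab in SCC6. The part of this rise in the cetuximab calls was not tested. In SCC6 the steepest falls were CYC1, cytochrome c1 (−0.24 log2 units per day), and NDUFB8 (−0.22), and the steepest rises NDUFA5 (0.15) and NDUFB1 (0.13), with edgeR adjusted p of 0.00496, 0.00656, 0.00464 and 0.0203. CYC1 stood at 140 and 129 CPM on days 0 and 1 and at 72.1, 76.6, 72.1 and 66.8 CPM on days 2 to 5. The step between days 1 and 2 fell at the change of flow cell, so day and flow cell cannot be told apart. With day 0 left out, 2 members of SCC6 and 0 of SCC25 had a trend. COX5B and NDUFS7 rose by 0.10 log2 units per day in SCC25 (edgeR adjusted p of 0.00977 and 0.0279).

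Other genes of the pathway were counted from lists, under cetuximab, to be read against all genes. Of all genes, 14.5% were lower and 15.5% higher in SCC6, 22% and 22.5% in SCC1, and 9.47% and 8.72% in SCC25. Values within flow cells are not given for these lists, so the part of the flow cell in their calls is not shown. Of 47 assembly factors, 18 were called lower and 0 higher in SCC6 (0 higher at an unadjusted p under 0.05 by edgeR and by DESeq2), 14 lower and 6 higher in SCC1, and 6 lower and 1 higher in SCC25, with median log2 fold changes of −0.23, −0.04 and −0.09. NDUFAF4, which assists complex I assembly, fell from 33.7 ± 5.43 to 18.9 ± 3.91 CPM in SCC6 (SD, n = 5 each, log2 fold change −0.86 ± 0.16 SE, edgeR adjusted p = 0.00247). Of 17 ATP synthase subunits, 9 were lower in SCC6, 1 lower and 1 higher in SCC1 (8 lower by DESeq2), and 2 lower in SCC25. ATP5G1, a gene of the membrane ring subunit c, fell by 0.67 on the log2 scale in SCC6 (edgeR adjusted p = 0.00115).

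Of the 16 TCA cycle and pyruvate dehydrogenase genes, 5 were lower in SCC6, 8 in SCC1 and 4 in SCC25, and 0 were higher in any line, also at an unadjusted p under 0.05 and by DESeq2. FH, fumarase, fell by 0.43 in SCC1 and by 0.20 in SCC25 on the log2 scale (edgeR adjusted p of 1.15e-05 and 0.0137), and IDH3A, a subunit of isocitrate dehydrogenase, fell by 0.93 in SCC6 (edgeR adjusted p = 0.00162). Of 7 tested other structural subunits and isoforms, 2 were lower in SCC6 and in SCC1, NDUFAB1, the mitochondrial acyl carrier protein, and CYCS, cytochrome c, and 1 was higher in both, NDUFA4L2. The level of NDUFA4L2 was low, with means of 0.62 CPM with PBS and 1.11 CPM with cetuximab in SCC1. In SCC6 these means were 0.41 and 1.03 CPM. CYCS fell from 544 ± 60.6 to 307 ± 88.6 CPM in SCC6 (SD, n = 5 each, log2 fold change −0.84 ± 0.18 SE, edgeR adjusted p = 0.00464).

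Of the 13 mitochondrially encoded subunits, 0 were called in SCC6, with 0 at an unadjusted p under 0.05 by edgeR and by DESeq2, and the median log2 fold change was −0.01. In SCC1, 4 were higher and 1 lower, and in SCC25, 1 higher and 1 lower. MT-ND5 rose by 0.35 in SCC1 and by 0.21 in SCC25 on the log2 scale (edgeR adjusted p of 0.0131 and 0.0225), and MT-ND2 was the gene that fell in both (−0.29 and −0.31, adjusted p of 0.0268 and 0.042). Both encode subunits of the membrane arm of complex I.

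Among the transcriptional regulators, 5 of 12 tested were lower in SCC6, 6 of 12 lower and 2 higher in SCC1, and 2 of 13 lower and 1 higher in SCC25. TFAM, which packages mitochondrial DNA and takes part in its transcription, fell by 0.71 in SCC6, by 0.44 in SCC1 and by 0.26 in SCC25 on the log2 scale (edgeR adjusted p of 0.00289, 0.000439 and 0.0353). The coactivator PPARGC1B rose in SCC1 from 6.54 ± 0.679 to 10.1 ± 1.64 CPM and fell in SCC6 from 9.02 ± 1.33 to 4.43 ± 0.692 CPM (SD, n = 5 each, edgeR adjusted p of 0.000816 and 0.000523). Its relative PPARGC1A rose in SCC25 from 1.99 ± 0.652 to 6.61 ± 1.09 CPM (SD, n = 5 each, log2 fold change 1.73 ± 0.21 SE, edgeR adjusted p = 0.00027).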

How the data were processed

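Bulk poly(A) RNA from 33 libraries was analysed. The authors quantified transcripts with Salmon (version 0.8.2 in the submitters' processing notes) and summed them per gene symbol with tximport, and the deposited values are estimated counts, not normalised. They were rounded to whole numbers. The build of the index and the tximport settings were not given in the sources used here, and gene positions are those of GENCODE on GRCh37. All columns matched a sample (0 did not). Genes passing filterByExpr were tested with edgeR 4.0.16 (R 4.3.3, limma 3.58.1), with TMM scaling and the robust quasi-likelihood test, over all genes, at a Benjamini-Hochberg adjusted p under 0.05. DESeq2 1.42.0 was an alternative. Intervals are ± 2 SE. Daily ratios used a pseudocount of 0.1 CPM. Scripts were tested on simulated data.

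The fits compared PBS and cetuximab on days 1 to 5 per line, the interaction of line and treatment, untreated lines, and a linear trend over PBS days 0 to 5. The members and lists were chosen with earlier results of these data known. Named are, per line, the called members with the 5 largest rises and falls, all SDH subunits, the 5 members with the smallest adjusted p between lines, the 3 largest differences each way between untreated lines, the 2 steepest trends each way, and up to 3 called genes per list. Same-day PBS and cetuximab libraries come from the same line and labelled day. Their deviations from group means correlated at 0.12 to 0.40 in SCC1, 0.23 to 0.59 in SCC25 and −0.19 to 0.59 in SCC6. Promoters are RefSeq sequences on GRCh38.p14. Figures were drawn with matplotlib 3.10.9.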

Additional observations from a re-analysis of the deposited data

Results flagged for a closer look

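The change under cetuximab differed between lines for 18 of 58 members by a test of the interaction itself, with the smallest edgeR adjusted p for SDHA (0.000548), NDUFA1 (0.00149), NDUFV3 (0.00216), COX7B (0.00446) and NDUFB5 (0.00568).

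In 13 of 216 groups of 5 libraries, 1 library lay far from the other 4 by Dixon's criterion, where chance alone marks about 1 in 20. In SCC25 with cetuximab this was day 3 for the summed complex IV level (1022 CPM against 1102 to 1130), SDHA (106 against 118 to 123), SDHD (139 against 122 to 125) and UQCRH (167 against 133 to 138). In SCC25 with PBS it was day 2 for the summed complex I level (2434 CPM against 2298 to 2331) and day 1 for SDHA (123 against 134 to 137). In SCC6 with PBS it was day 1 for CYC1 (129 CPM against 66.8 to 76.6), NDUFA6 (52.5 against 62.7 to 66.5) and NDUFB5 (60.3 against 85.6 to 95.5), and day 5 for NDUFB9 (308 against 345 to 360). COX5B stood apart on cetuximab day 4 of SCC6 (68.9 CPM against 48.9 to 53.2), NDUFS7 on cetuximab day 5 of SCC1 (19.4 against 12.6 to 13.8) and UQCRFS1 on PBS day 5 of SCC1 (26.4 against 31.2 to 32.9).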

How the results depend on the processing

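Of 1052 values for named members under alternatives, 1049 kept their direction, 959 also their side of the threshold, 81 lost a call and 9 gained one. The 3 others were COX7B in SCC25, never called there, at 0.01 and then −0.06 within flow cells, −0.02 without 1 cetuximab library and −0.01 with the GC and length trend removed. Within flow cells the members called numbered 6 in SCC1 and 0 in SCC25. With the day as a block they were 34 in SCC6 and 29 for the line difference, and no other count moved by over 1.5 times under the block. Without cetuximab days 4 and 5 of SCC6, chosen after the data were seen, they were 5 in SCC6 and 7 for the line difference. With no filter on low counts they were 3 in SCC25, 11 for the line difference and 6 for the SCC25 trend. In SCC25, adding day 0 gave 3 and removing the GC and length trend, also chosen later, gave 12. Trends with day 0 left out numbered 2 in SCC6 and 0 in SCC25, and DESeq2 gave 6 in SCC25. Leaving out 1 library gave 10 to 22 in SCC1, 8 to 29 in SCC6, 2 to 7 in SCC25, 12 to 24 for the line difference, 35 to 44, 40 to 46 and 38 to 42 for untreated SCC1 against SCC25, SCC6 against SCC25 and SCC1 against SCC6, and trends of 0 to 2 in SCC1, 2 to 27 in SCC6 and 0 to 8 in SCC25. Shares of all genes are not given for the counts of this paragraph. Where not stated, the cause was not tested.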
